A study of Mus musculus with 2 samples.

Results

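The miR-99/let-7/miR-125 clusters are 3 paralogous groups of miRNA genes, each with a hairpin of the miR-99/100 family, a let-7 hairpin and a miR-125 hairpin. The members were taken by name and position from the genomic clusters on mouse chromosomes 16, 17 and 9, which gave 9 of the 2202 miRNA genes in the deposited tables. All 9 reached a mean count of at least 10, as did 369 genes in all. Small RNAs, with a listed size range under 30, had been sequenced from total RNA of whole adrenal gland, whose cortex makes steroid hormones and whose medulla makes catecholamines. The only group was 2-month-old females of the F1 hybrid strain B6CASTF1/J, with 2 biological replicates and no treatment. The tissue labels number different females but the donor label is the same in both samples, so the spread given here is that between samples.

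A miRNA hairpin is cut into a short duplex, and usually the strand from one arm is kept and guides repression of messenger RNAs that match its seed, bases 2 to 8. The let-7 family restrains growth and pluripotency genes such as Lin28 and Hmga2, and miR-125 is the vertebrate counterpart of the developmental timing miRNA lin-4 of Caenorhabditis elegans. miR-99a and miR-100 are known to repress mTOR and the IGF1 receptor. In Drosophila, too, miR-100, let-7 and miR-125 lie together and are processed from a common primary transcript.

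Seeds and arm sequences define which members can be told apart. The 5p sequences of members, from RefSeq on GRCm38.p6, are shown 5′ to 3′ with the seed in capitals, because their seeds set the families and their other bases decide whether a read can be assigned to a single gene.
mmu-miR-99a-5p (Mir99a, chr16:77598940-77598961, plus strand): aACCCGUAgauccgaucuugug
mmu-miR-99b-5p (Mir99b, chr17:17830194-17830215, plus strand): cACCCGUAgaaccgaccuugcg
mmu-miR-100-5p (Mir100, chr9:41531437-41531458, plus strand): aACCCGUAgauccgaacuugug
mmu-let-7c-5p (Mirlet7c-1, chr16:77599672-77599693, plus strand): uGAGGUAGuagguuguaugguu
mmu-let-7e-5p (Mirlet7e, chr17:17830366-17830387, plus strand): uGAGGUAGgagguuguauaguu
mmu-miR-125a-5p (Mir125a, chr17:17830817-17830840, plus strand): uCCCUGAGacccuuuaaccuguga
mmu-miR-125b-5p (Mir125b-2, chr16:77646279-77646300, and Mir125b-1, chr9:41581940-41581961, plus strand): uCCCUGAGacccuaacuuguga

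The 3 members of the miR-99/100 family share the seed ACCCGUA, and no other gene of the table carried it. Counted from base 1 at the 5′ end, miR-99a-5p differs from miR-100-5p by U16A only. It differs from miR-99b-5p by A1C, U11A, U16C and U21C. let-7c-5p differs from let-7e-5p by U9G and G19A, both outside the seed GAGGUAG. miR-125a-5p, at 24 bases, and miR-125b-5p, at 22 bases, are identical over the first 13 bases.

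The 5p sequences of Mir99a, Mir99b, Mir100, Mirlet7e and Mir125a were each listed for a single gene of the RefSeq miRNA table, the only place searched, since matches elsewhere in the genome were not analysed here. In contrast, miR-125b-5p is made by both Mir125b-1 and Mir125b-2, and let-7c-5p by Mirlet7c-1 and also by Mirlet7c-2 on chromosome 15. The let-7a-5p sequence listed for Mirlet7a-1 also occurs in the hairpin of Mirlet7a-2. Reads aligned to several places were counted for no gene, and they numbered 94.2 per 100 gene counts in replicate 1 and 96.2 in replicate 2. For these 4 members, a read that lies wholly within the shared arm cannot be assigned to a gene. Their 3p sequences are shown because each was listed for its own gene only.
mmu-let-7c-1-3p (Mirlet7c-1, chr16:77599717-77599738, plus strand): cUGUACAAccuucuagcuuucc
mmu-let-7a-2-3p (Mirlet7a-2, chr9:41536777-41536797, plus strand): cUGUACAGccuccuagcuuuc
mmu-miR-125b-2-3p (Mir125b-2, chr16:77646318-77646339, plus strand): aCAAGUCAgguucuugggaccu
mmu-miR-125b-1-3p (Mir125b-1, chr9:41581980-41582001, plus strand): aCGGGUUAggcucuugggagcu

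The clusters differ in how tightly they are packed. On chromosome 17, Mir99b (17830188 to 17830257), Mirlet7e (17830352 to 17830444) and Mir125a (17830812 to 17830879) lie within 692 bases of mm10, with gaps of 94 and 367 bases. All 3 lie on the plus strand in introns of the protein-coding gene Spaca6, and Mir125a also overlaps an exon of 1 of the 3 Spaca6 transcripts that span it. On chromosome 16, Mir99a (77598936 to 77599000) and Mirlet7c-1 (77599657 to 77599750) are 656 bases apart, and Mir125b-2 (77646273 to 77646343) follows after 46522 bases. All 3 are intronic in the noncoding host gene Mir99ahg, and Mir125b-2 also overlaps C130023A14Rik. On chromosome 9, Mir100 (41531425 to 41531504) and Mirlet7a-2 (41536716 to 41536811) are 5211 bases apart, and Mir125b-1 (41581926 to 41582002) follows after 45114 bases. These 3 are intronic in the noncoding genes 3110039I08Rik and Gm49317, and Mir125b-1 also lies within Gm28119.

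Replicate 1 had 2839732 sense-strand gene counts and replicate 2 had 2280028, and levels are these counts scaled to 1000000 per library (CPM). Unmapped reads made up 29.8% of the reads of replicate 1 and 39.7% of those of replicate 2. The miRNA tables hold no messenger RNAs of steroid synthesis, so the tissue label could be checked on miRNA markers alone. The neuroendocrine list (Mir375, Mir7-1, Mir7-2 and Mir7b) was detected in full, at 4.28% and 4.01% of gene counts. Markers of other tissues also differed between the samples, with skeletal and heart muscle miRNAs at 953 and 6.58 CPM and blood cell miRNAs at 1973 and 15539 CPM. In whole tissue, fewer cells of a type and less miRNA per cell cannot be told apart.

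The first question was how much each cluster contributes. The 9 members made up 3.78% of the gene counts of replicate 1 (95% Clopper-Pearson interval 3.76 to 3.80) and 3.70% of those of replicate 2 (3.67 to 3.72). The cluster on chromosome 17 held 2.43% (2.41 to 2.44) and 2.28% (2.26 to 2.30). The cluster on chromosome 16 held 1.15% (1.14 to 1.16) and 1.22% (1.20 to 1.23). The cluster on chromosome 9 held 0.205% (0.200 to 0.210) and 0.195% (0.189 to 0.200). The order of the 3 clusters was the same in both libraries, and the means of 2.35% ± 0.100, 1.18% ± 0.0499 and 0.200% ± 0.00722 (SD, n = 2) stood apart by more than their SDs. With counts taken without regard to strand, in which Mirlet7e has none, the clusters on chromosomes 17 and 16 held 1.40% ± 0.139 and 1.37% ± 0.0955 and were not separated. Intervals cover counting error within a library only and not the spread between samples. No molecular identifiers are stated, so reads copied from the same molecule cannot be told apart. The totals of the clusters rest on assigned reads, and 2 of the 3 members on chromosomes 16 and 9, against none on chromosome 17, have a 5p arm that another gene also makes.

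Members with a 5p arm of their own made up nearly all of these counts. The 5 such members held 96.7% of the counts of the 9 in replicate 1 and 96.4% in replicate 2, at levels of 1561 to 12855 CPM. The 4 members with a shared 5p arm lay between 125 and 810.1 CPM. The part of unassigned reads in this difference was not tested, since the tables do not tie reads aligned to several places to a hairpin.

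**Figure D1:**
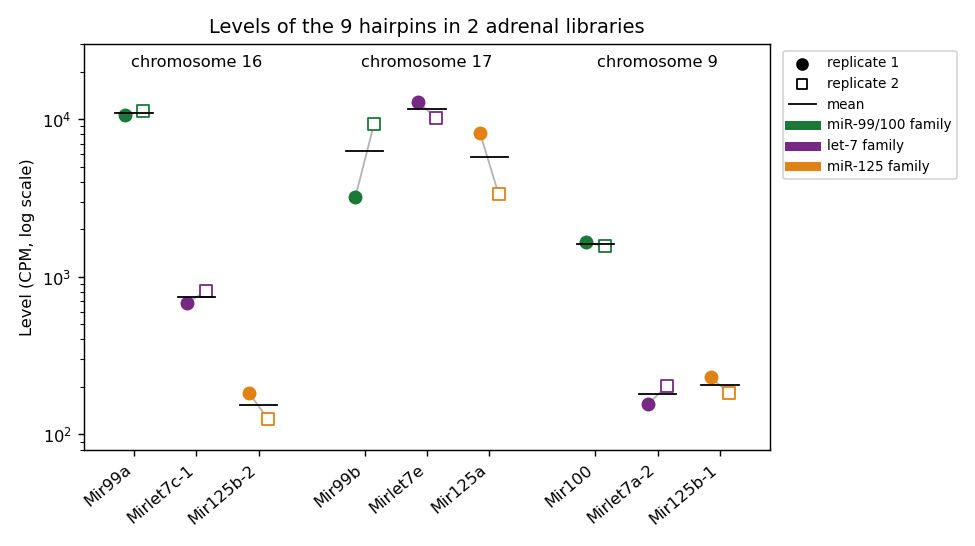
Level of each hairpin in CPM (log scale) in replicate 1 (filled circles) and replicate 2 (open squares), with the mean as a line, grouped by cluster and coloured by family. Mirlet7e and Mir99a lie highest, the replicates of Mir99b and Mir125a lie far apart in opposite directions, and the 4 members with a shared 5p arm lie below 1000 CPM.

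Among the miR-99/100 members, Mir99a was highest in both libraries. It had 30135 counts in replicate 1 and 25640 in replicate 2, or 10612 and 11246 CPM (10929 ± 448, SD, n = 2), and ranked 21 and 22 of all genes. Mir99b had 9097 and 21186 counts, or 3203 and 9292 CPM, and Mir100 had 4720 and 3558 counts, or 1662 and 1561 CPM. The ratio of Mir99a to Mir100 differed by 1.13-fold between the libraries, with intervals that did not overlap. It was 6.38 (95% interval 6.19 to 6.58) for replicate 1 and 7.21 (6.96 to 7.47) for replicate 2. The ratio of Mir99a to Mir99b was 3.31 (3.24 to 3.39) in replicate 1 and 1.21 (1.19 to 1.23) in replicate 2, so Mir99a was higher in both but its mean log2 ratio of 1.00 ± 1.03 did not exceed the SD. Mir99b exceeded Mir100 by 1.93-fold (1.86 to 2.00) in replicate 1 and 5.95-fold (5.75 to 6.17) in replicate 2.

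Among the let-7 members, Mirlet7e was far above its paralogs. It had 36504 counts in replicate 1 and 23278 in replicate 2, or 12855 and 10209.5 CPM (11532 ± 1870.45). Mirlet7c-1 had 1935 and 1847 counts, or 681 and 810.1 CPM, and Mirlet7a-2 had 444 and 462 counts, or 156 and 203 CPM. Mirlet7e exceeded Mirlet7c-1 by 18.9-fold (18.0 to 19.8) and 12.6-fold (12.0 to 13.2), and Mirlet7a-2 by 82.2-fold (74.9 to 90.5) and 50.4-fold (46.0 to 55.4). Mirlet7e alone has a 5p arm of its own among the 3, and the ratios hold for assigned reads only. The ratio of Mirlet7c-1 to Mirlet7a-2, both with a shared 5p arm, was 4.36 (3.93 to 4.84) and 4.00 (3.61 to 4.44).

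Among the miR-125 members, Mir125a was highest. It had 23284 counts in replicate 1 and 7617 in replicate 2, or 8199 and 3341 CPM. Mir125b-1 had 652 and 417 counts, or 229.6 and 183 CPM, and Mir125b-2 had 516 and 284 counts, or 182 and 125 CPM. Mir125a exceeded Mir125b-1 by 35.7-fold (33.0 to 38.7) and 18.3-fold (16.5 to 20.2). That gap sets an arm of its own against a shared arm and gives no ratio of miR-125a to miR-125b. In assigned reads, Mir125b-1 and Mir125b-2 differed by 1.26-fold (1.12 to 1.42) in replicate 1 and 1.47-fold (1.26 to 1.71) in replicate 2, with Mir125b-1 higher in both. Reads wholly within their shared miR-125b-5p were counted for neither gene, so this gives no ratio of their miR-125b-5p output.

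Of the 9 paralog pairs, all 9 had the same order in both libraries and 8 had a mean log2 ratio above its SD, the exception being Mir99a and Mir99b. Among paralogs, only the pairs of Mir99a, Mir99b and Mir100 compare members that each have a 5p arm of their own. Every other paralog pair holds a member with a shared 5p arm, so its order is that of assigned reads only. Of the 9 pairs within a cluster, 7 had the same order in both libraries and 6 had a mean log2 ratio above its SD. The limit to assigned reads also holds for each of these pairs outside chromosome 17. In the order of levels over all 9 members, several neighbours were not separated. Mirlet7e was above Mir99a in replicate 1 and below it in replicate 2. Mir99b was below Mir125a in replicate 1 and above it in replicate 2. Mir125a was above Mir100, Mir100 above Mirlet7c-1, and Mirlet7c-1 above Mir125b-1 in both libraries, each by more than the SD. Mir125b-1, Mirlet7a-2 and Mir125b-2, the 3 lowest, exchanged places between the libraries.

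Within the clusters, the miR-99/100 hairpin was the largest part on chromosomes 16 and 9. Mir99a held 92.5% (95% interval 92.2 to 92.8) of the counts of its cluster in replicate 1, and 92.3% (92.0 to 92.6) in replicate 2. Mirlet7c-1 held 5.94% (5.68 to 6.20) and 6.65% (6.36 to 6.95) there, and Mir125b-2 held 1.58% (1.45 to 1.72) and 1.02% (0.908 to 1.15). On chromosome 9, Mir100 held 81.2% (80.1 to 82.2) and 80.2% (79.0 to 81.4). Mirlet7a-2 held 7.63% (6.96 to 8.35) and 10.4% (9.53 to 11.3), and Mir125b-1 held 11.2% (10.4 to 12.0) and 9.40% (8.56 to 10.3). For both leading shares the intervals of the 2 samples overlapped, while for each smaller share they did not. Both leading shares compare a member with its own 5p arm against members with shared arms.

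The cluster on chromosome 17, in which all 3 members have a 5p arm of their own, had another make-up. Mir99b held 13.2% of its counts in replicate 1 (13.0 to 13.5) and 40.7% in replicate 2 (40.3 to 41.1). Mirlet7e held 53.0% (52.6 to 53.4) and 44.7% (44.3 to 45.1), and Mir125a held 33.8% (33.4 to 34.2) and 14.6% (14.3 to 14.9). Mirlet7e was the largest part in both libraries, but its mean log2 ratio over Mir99b, 1.07 ± 1.32, did not exceed the SD. Mir99b and Mir125a changed places. The sum of the cluster differed little, with 24258 CPM for replicate 1 against 22842 CPM for replicate 2, a ratio of 1.06.

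**Figure D2:**
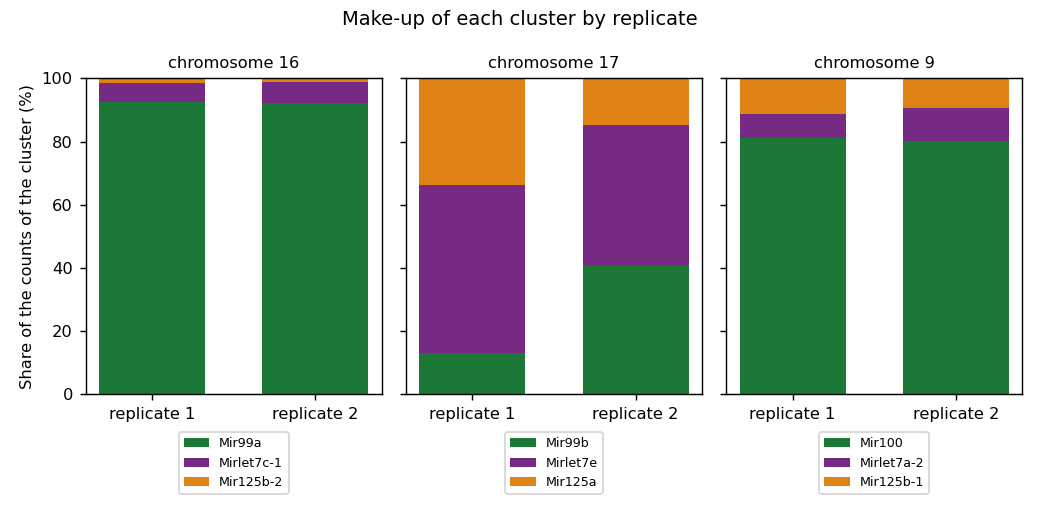
Share of the counts of each cluster (%) held by its miR-99/100 (green), let-7 (purple) and miR-125 (orange) hairpin in replicates 1 and 2. The leading shares on chromosomes 16 and 9 look alike between the replicates, while on chromosome 17 Mir99b takes 13.2% and 40.7% and Mir125a 33.8% and 14.6%.

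The replicates were then compared member by member, as ratios of replicate 1 over replicate 2. Of the 9 members, 2 differed by at least 2-fold, 1 in each direction, and 7 did not. Over all 369 genes whose mean count was 10 or more, 19.0% differed by at least 2-fold, 10.3% as higher in replicate 1 and 8.67% as higher in replicate 2, so the share among the members, 22.2%, was near the background. The absolute log2 difference had a median of 0.33 over the members and 0.45 over the 369 genes. Mir125a had a ratio of 2.45 (95% interval 2.39 to 2.52) and Mir99b a ratio of 0.345 (0.336 to 0.353), that is, Mir125a was higher in replicate 1 and Mir99b in replicate 2. Each side of this comparison is a single sample, so no test over samples was possible and the intervals cover counting error only.

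The other members lay within 2-fold. Mir99a had a ratio of 0.944 (0.928 to 0.960), which fell on the other side of 1 with TMM scaling, and Mir100 had 1.07 (1.02 to 1.11). Mirlet7e had 1.26 (1.24 to 1.28), Mirlet7c-1 0.841 (0.789 to 0.897) and Mirlet7a-2 0.772 (0.676 to 0.881). The miR-125b hairpins had 1.46 (1.26 to 1.69) for Mir125b-2 and 1.26 (1.11 to 1.42) for Mir125b-1.

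Several marker lists also differed between the samples, where detected means at least 10 counts in both libraries. Muscle miRNAs were higher in replicate 1 (2707 counts against 15 over the list, with Mir133a-1, Mir133a-2 and Mir133b at 0 in both and 0 of 10 detected). Kidney and gut epithelium miRNAs (3916 against 1598 counts, 6 of 10 detected) and the liver miRNA Mir122 (10567 against 5377 counts) were higher in replicate 1 as well. Blood cell miRNAs (5604 against 35429 counts, 7 of 7 detected) and the endothelial Mir126a (122684 against 135577 counts) were higher in replicate 2 on the CPM scale. The neuroendocrine list, with a ratio of 1.07 and 4 of 4 detected, and the smooth muscle and fibroblast list, with a ratio of 0.908 and 5 of 6 detected, differed least. The part of these cell types in the ratios of Mir125a and Mir99b was not tested.

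**Figure D3:**
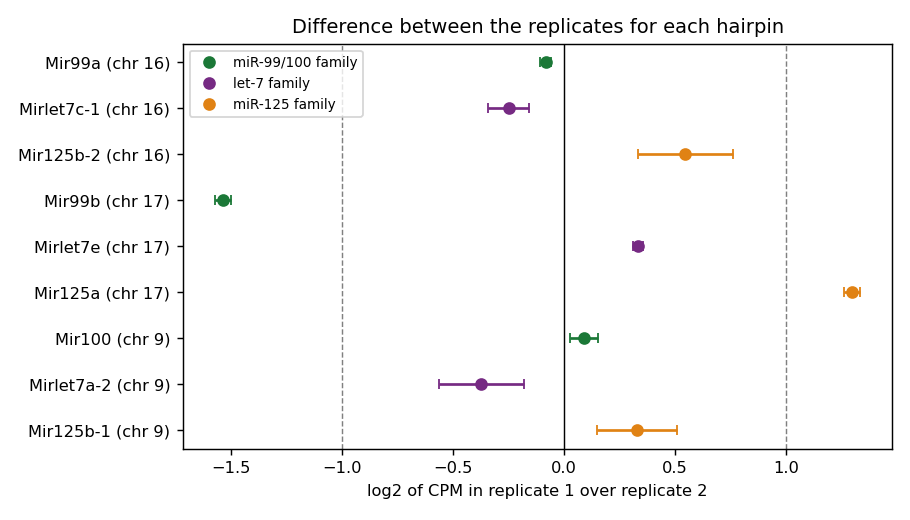
log2 of the CPM in replicate 1 over that in replicate 2 for each hairpin (points, coloured by family) with exact 95% counting intervals, and dashed lines at 2-fold. Mir125a (1.30) and Mir99b (-1.54) pass the lines on opposite sides, and the other 7 lie within them.

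Hairpins of the chromosome 17 cluster therefore differed from each other in replicate ratio. The gap between the log2 ratios was 1.87 for Mir99b and Mirlet7e, 0.96 for Mirlet7e and Mir125a, and 2.83 for Mir99b and Mir125a, or 7.12-fold. On chromosome 16, Mir99a and Mirlet7c-1 differed by 0.17, Mir99a and Mir125b-2 by 0.63, and Mirlet7c-1 and Mir125b-2 by 0.79. On chromosome 9, Mir100 and Mirlet7a-2 differed by 0.47, Mir100 and Mir125b-1 by 0.24, and Mirlet7a-2 and Mir125b-1 by 0.70. As background, 251 pairs of miRNA genes whose mean counts are at least 100 lie on the same strand with starts within 10000 bases, and 29.9% of these pairs had a gap of at least 2-fold. Of the 5 member pairs among them, 2 did. The gap of Mir99b and Mir125a was reached by 3 of the 251 pairs, itself included, and by 1 of the 60 pairs with starts within 1000 bases. The other 2 pairs both contain Mir487b, of the imprinted Dlk1-Dio3 region. Most of the pairs with a gap of at least 2-fold lie in that region, where single genes enter many pairs. The 29.9% therefore mainly describes that region. The comparison of nearby pairs was set up after the ratios had been seen, and pairs that share a gene are not independent.

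**Figure D4:**
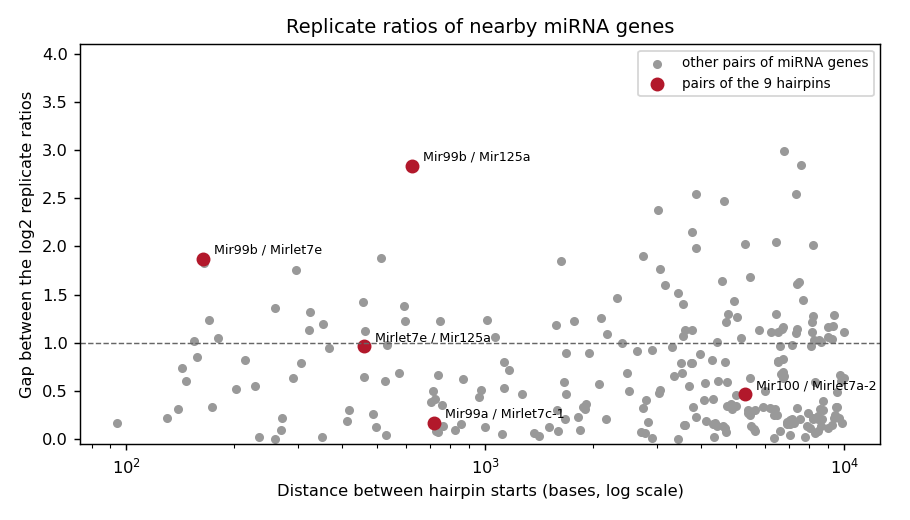
Gap between the log2 replicate ratios of 2 miRNA genes on the same strand against the distance between their starts (bases, log scale), for 251 pairs, with pairs of the 9 hairpins in red and a dashed line at 2-fold. The pair of Mir99b and Mir125a (2.83) lies above every other pair with starts within 1000 bases.

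Set against other genes of the same families, the members held a small part of the assigned let-7 reads. They held a larger part of those of the miR-10 and miR-99/100 genes. The let-7 members held 4.16% of the counts of the 12 let-7 genes in replicate 1 and 3.51% in replicate 2, of which Mirlet7e made up 93.9% and 91.0%. Mirlet7c-1 and Mirlet7c-2 share a 5p arm, as do Mirlet7a-1 and Mirlet7a-2, and reads wholly within such an arm were counted for no gene. These values are therefore not shares of mature let-7. The 9 let-7 genes elsewhere held 31.6% and 30.8% of gene counts. None of the 9 differed by at least 2-fold between the samples, against 19.0% of all 369 genes at a mean count of 10 or more. The miR-99/100 members held 24.4% and 29.5% of the counts of the 5 miR-10 and miR-99/100 genes. Mir10a and Mir10b, whose seed is not that of miR-99a, made up the rest. The miR-125 seed CCCUGAG was carried by 3 further genes of the table. Mir351 had 4736 and 4703 counts, or 1668 and 2063 CPM, a ratio of 0.809. In assigned reads it lay above Mir125b-1 and Mir125b-2 and below Mir125a in both libraries. Reads wholly within the shared miR-125b-5p were counted for neither of its genes, so the counts give no ratio of miR-351 to miR-125b. Mir6367 and Mir6394 had no count, which allows up to 1.06 CPM in replicate 1 and 1.32 in replicate 2.

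The genes nearest to each leading member in log2 CPM over the 2 libraries were found among 225 other genes at mean counts of at least 100. Mir744 was nearest to Mir99a (distance 0.14) and to Mirlet7e (0.23), and Mir149 to Mir100 (0.23). Mir27b (5886 and 3221 CPM) was nearest to Mir125a at a distance of 0.48. For Mir99b the nearest gene was Mir320 (4841 and 7760 CPM) at 0.65, the farthest nearest gene of any of the 9 members. With 2 libraries such a likeness covers a level and a single ratio.

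Strand decided whether 1 of the members was seen at all. Mirlet7e, with 36504 and 23278 counts on its strand, had 0 counts in both libraries where strand was disregarded. The annotated miRNA gene Gm25927 spans it on the minus strand (17830343 to 17830459) and had 0 counts on its own strand in both. The other 8 members had the same count either way, apart from 1 antisense count at Mirlet7c-1 in replicate 1.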

How the data were processed

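MicroRNA libraries of 2 female adrenal gland samples were analysed from the read counts per miRNA gene that the authors deposited, not normalized, with assembly mm10 and annotation GENCODE M21 per the file headers of the accompanying descriptions. The aligner and the counter are not given in the sources used here. Of the 3 columns, unstranded, sense and antisense counts, the sense column was used, since its total exceeded that of the antisense column. The 4 rows that name no gene (unmapped, aligned to several places, outside genes, ambiguous) were left out of totals: 29.8%, 28.8% and 10.8% of reads in replicate 1 and 39.7%, 25.3% and 8.60% in replicate 2, with 8 and 0 ambiguous reads. All 2202 identifiers matched GENCODE M21. Counting was per hairpin, so the arms of a hairpin cannot be told apart, and a hairpin with an arm made elsewhere may have lost reads. Allele-specific reads of the hybrid were not analysed here.

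Counts were scaled to 1000000 per library (CPM). Each count equals 0.352 CPM (replicate 1) or 0.439 CPM (replicate 2), and a count of 0 allows 3 counts. Intervals are exact 95% binomial intervals (scipy 1.17.1). Means ± SD are over 2 replicates. RNAs of this size range are about as long as a mature arm, so counts were not divided by hairpin length; counts per hairpin base were an alternative. With 1 group there was no contrast and no p-value. A gene was called as different between the samples at 2-fold or more among genes whose mean count was 10 or more. Interval and call procedures were checked on simulated data that held counting error only, so the check does not cover the spread between samples. Alternatives were counts without strand, TMM (edgeR 4.0.16), median-of-ratios scaling (DESeq2 1.42.0), other count minimums, a pseudocount of 1 CPM and leaving out each replicate. Further alternatives were totals without the muscle and blood cell lists and, not planned in advance, totals that include reads aligned to several places. Named genes were the 9 members, the other let-7, miR-10 and miR-125 seed genes, and for each member the 3 nearest genes, of which the first is printed for 5. Gm25927, Mir487b, Mir6367 and Mir6394 were named after their values were seen. Members, lists and tests were chosen with earlier results of these data known. Sequences are from the RefSeq tables on GRCm38.p6, in which all 9 members had a mature entry and 7 a hairpin entry.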

Additional observations from a re-analysis of the deposited data

How the results depend on the processing

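With 2 replicates, leaving out either moves a mean by less than the SD whatever the data, so those values show only whether a sign turned. Under the other alternatives, 135 of 148 values kept their direction and stayed within the SD, within 1.5 times a count or on their side of the 2-fold line. Counts without regard to strand lose every read of Mirlet7e and have lower totals, 2492422 in replicate 1 and 1925204 in replicate 2. These counts moved the shares of the clusters on chromosomes 16, 17 and 9 to 1.37%, 1.40% and 0.232%, which ended the separation of the first 2. The levels of Mir99a, Mirlet7c-1 and Mir100 moved to 12704 CPM, 868 CPM and 1871 CPM, though their counts were the same apart from 1 at Mirlet7c-1. The level of Mirlet7e moved to 0 CPM. No ratio with Mirlet7e could be formed there. Per hairpin base, the log2 ratio was 3.06 for Mir99a over Mir100 and 4.41 for Mir99a over Mirlet7c-1. TMM scaling moved every log2 replicate ratio by 0.09 and turned that of Mir99a to 0.010. The number of genes that differed by at least 2-fold was 145 of 555 with at least 1 count in each library and 33 of 234 with a mean count of at least 100, against 70 of 369. Among pairs of nearby genes the share was 24.1% of 54 at a mean count of at least 1000 and 28.3% of 60 with starts within 1000 bases, both added after the data were seen. The log2 ratio of Mir99b over Mir125a was -1.36 without replicate 2 and 1.48 without replicate 1, and that of Mir125b-1 over Mirlet7a-2 was 0.55 and -0.15. No paired analysis was possible because the labels give a single group. Among the members depth was lowest for Mir125b-2, with a counting interval of the replicate ratio of 1.26 to 1.69.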
